A study of Homo sapiens with 4 samples.

Results

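Aminoacyl-tRNA synthetases are the enzymes that join each amino acid to its tRNA, the step that gives the ribosome its building blocks. The genes described here are 35 nuclear genes for these enzymes, taken by symbol from a table of 28198 genes, and all 35 were found. Of these, 19 code for the enzymes of the cytosol and 16 for those of the mitochondrion, which are made on cytosolic ribosomes and imported. GARS1 and KARS1 each code for the enzyme of both compartments and were placed with the cytosolic genes.

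The values come from polysome profiling of MDA-MB-231, an established human breast cancer cell line, in which METTL3, the m6A methyltransferase, had been depleted by shRNA and put back by lentivirus. The cells received either wild-type METTL3 (METTL3-WT) or METTL3-K177Q, in which a lysine of the nuclear localization signal is replaced by glutamine to mimic acetylation. Cells of both genotypes were given 100 µg/mL cycloheximide for 5 min, and their lysates were spread on a sucrose gradient, whose fractions were combined into sub-polysome RNA (free subunits and single ribosomes) and polysome RNA (mRNAs with several ribosomes). Poly(A)-selected RNA of each fraction was sequenced, and 4 libraries were analysed, 1 per genotype and fraction and all of replicate 2, so the values below carry no replicate error, and the genotypes were compared without a test.

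Levels are in FPKM, the fragments mapped to a gene divided by the length of its transcript and by the depth of its library. On this scale genes can be compared per length, but a shift common to all mRNAs of a library is lost. Nor can it tell fewer cells holding an mRNA from less of that mRNA per cell. The polysome ratio of a gene is its polysome over its sub-polysome level as log2(FPKM + 0.1), and a gene was called higher or lower past 1.5-fold. The 35 genes all passed the minimum mean of 1 FPKM, as did 10905 genes in the whole table. The libraries held about 24100000 to 25700000 fragments, estimated from the smallest step between values, and the standard errors (SE) given below cover counting error at that depth only. The mesenchymal genes VIM, CD44, AXL and CAV1 had means of 101 to 1113 FPKM, while the oestrogen and progesterone receptor genes ESR1 and PGR were near 0, CDH1 had a mean of 0.349 FPKM and GATA3, a luminal marker, 3.69 FPKM, and METTL3 was at 9.39 and 38.7 FPKM in METTL3-WT and at 5.07 and 29.5 FPKM in METTL3-K177Q sub-polysome and polysome RNA. Both genotypes carry a METTL3 transgene, so this level does not check the labels.

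Many cytosolic synthetase genes belong to the amino acid response, in which the transcription factor ATF4 binds C/EBP-ATF elements near their start sites. The letters TGATGNAA, a core of that element, were looked for on both strands of RefSeq promoter windows (GRCh38.p14, 250 bases before to 50 after the start site), which were given for 30 of the 35 genes and not for LARS1, VARS1, YARS1, AARS2 and VARS2. A match was present in 7 of 16 cytosolic genes and in 1 of 14 mitochondrial genes, against 4.46% of all 27305 genes with a window. The stricter TGATGCAA, whose matches all lie within those of TGATGNAA, was present in 6 of the 16, in 0 of the 14 and in 1.08% of all genes. The 8 matches are shown because they separate the lists by sequence, each with 11 bases on either side, 5′ to 3′ on the strand of the gene. The matched letters, or their reverse complement, are in capitals.
AARS1 (chr16:70289675-70289704, minus strand): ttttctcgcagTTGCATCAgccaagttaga
CARS1 (chr11:3057407-3057436, minus strand): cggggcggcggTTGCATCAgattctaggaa
GARS1 (chr7:30594834-30594863, plus strand): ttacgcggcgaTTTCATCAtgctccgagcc
IARS1 (chr9:92293692-92293721, minus strand): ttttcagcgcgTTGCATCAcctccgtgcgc
MARS1 (chr12:57488053-57488082, plus strand): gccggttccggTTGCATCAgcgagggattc
NARS1 (chr18:57621804-57621833, minus strand): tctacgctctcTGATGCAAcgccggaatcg
TARS1 (chr5:33440956-33440985, plus strand): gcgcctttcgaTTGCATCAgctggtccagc
YARS2 (chr12:32756076-32756105, minus strand): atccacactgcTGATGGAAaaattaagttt

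In 6 of the 7 cytosolic genes the letters are TGATGCAA or its reverse complement TTGCATCA, and GARS1 is the exception with TTTCATCA. The match of TARS1 lies at positions 3 to 10 from the start site and that of NARS1 at 15 to 22, while that of AARS1 lies at -187 to -180. A match is a description of these windows and not evidence of binding. Among the 13 cytosolic genes listed from background knowledge as ATF4-responsive, 10 had a window and 7 of these a match, whereas 0 of the 6 other cytosolic genes had 1. The 10 genes had 15 windows, 7 of them with a match, and the 6 others had only 6 windows, so less sequence was searched per gene.

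HARS1 and HARS2, the cytosolic and the mitochondrial histidyl enzymes, are read in opposite directions from RefSeq start sites only 85 bases apart (chr5:140691371-140691454 lies between them, with a GC content of 59.5%). Exons of both genes in GENCODE 44 overlap each other on opposite strands there.

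The cytosolic synthetase mRNAs were several times more abundant than the mitochondrial ones. Their median levels were 38.3 and 67.4 FPKM in METTL3-WT sub-polysome and polysome RNA and 36.9 and 72.2 FPKM in METTL3-K177Q RNA. For the mitochondrial genes, the corresponding medians were 6.07, 8.59, 6.18 and 8.42 FPKM, close to the median of all genes tested (8.94, 9.79, 8.87 and 9.63 FPKM). Summed over genes, cytosolic synthetases took 0.079% of all FPKM in METTL3-WT sub-polysome RNA and 0.190% in polysome RNA, and in METTL3-K177Q cells these shares were 0.064% and 0.193%.

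FARSA and FARSB code for the catalytic and the other subunit of the cytosolic phenylalanyl enzyme, which joins the subunits in equal numbers. By FPKM they were the most and the least abundant cytosolic genes. In GENCODE 44 the canonical FARSB transcript has 6761 bases with a coding sequence of 1767, beside 1811 and 1524 for FARSA. FPKM is divided by transcript length, so the FARSB level depends on the transcript taken, which was not tested. FARSA had 129 and 269 FPKM in METTL3-WT sub-polysome and polysome RNA and 125 and 240 FPKM in METTL3-K177Q RNA. FARSB had 5.78, 7.15, 5.17 and 6.25 FPKM in the same order, which is kept for all quartets of values below. Thus FARSB was lower than FARS2, the mitochondrial phenylalanyl enzyme, in every library. By the mean over the libraries, the seryl enzyme SARS1 was next to FARSA at 59.5, 154, 56.6 and 155 FPKM. GARS1, the glycyl enzyme of both compartments, followed by that mean at 44.7, 135, 43.5 and 124 FPKM.

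Of the mitochondrial genes, FARS2 had the highest mean over the libraries, with 18.1, 49.3, 22.3 and 44.3 FPKM. SARS2 had 16.0, 25.8, 17.9 and 28.1 FPKM, and CARS2, the cysteinyl enzyme, 19.96, 27.9, 16.0 and 23.3 FPKM. These levels reached those of the less abundant cytosolic genes. At the other end, the methionyl enzyme MARS2 had 1.91, 1.95, 1.31 and 1.92 FPKM. AARS2, the alanyl enzyme, had 1.27, 2.65, 1.17 and 2.53 FPKM, and the glutamyl enzyme EARS2 1.68, 3.21, 2.07 and 3.03 FPKM. For these genes the counting SE of a polysome ratio was 0.11 to 0.19, against 0.02 to 0.07 for the cytosolic genes.

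The question of the first comparison was how far each mRNA was shifted to polysomes. All 35 genes had more FPKM in polysome than in sub-polysome RNA in both genotypes, where 57.3% of all genes tested did in METTL3-WT and 57.2% in METTL3-K177Q cells. In METTL3-WT cells, 25 of 35 were higher past 1.5-fold, 17 of 19 cytosolic and 8 of 16 mitochondrial, beside a background of 28.1% of all genes. In METTL3-K177Q cells, 27 of 35 were, 18 of 19 cytosolic and 9 of 16 mitochondrial, beside 30.2%. No member was lower past 1.5-fold in either genotype, where 19.1% and 21.3% of all genes were.

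The median polysome ratio of the cytosolic genes was 1.06 on the log2 scale in METTL3-WT cells, or 2.09-fold (95% interval of the median over genes 0.79 to 1.37), and 1.18 in METTL3-K177Q cells, or 2.26-fold (0.77 to 1.49). For the mitochondrial genes it was 0.60 (0.22 to 1.14) and 0.62 (0.30 to 1.05). All genes tested had medians of 0.14 and 0.16. The cytosolic median was thus above the mitochondrial median by 0.46 and 0.56, with overlapping intervals, and the genes of a list are not replicates. In METTL3-WT cells 4 of 16 mitochondrial genes lay above the cytosolic median, and in METTL3-K177Q cells 0 did. Without GARS1 and KARS1 the differences between the medians were 0.45 and 0.55.

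**Figure D1:**
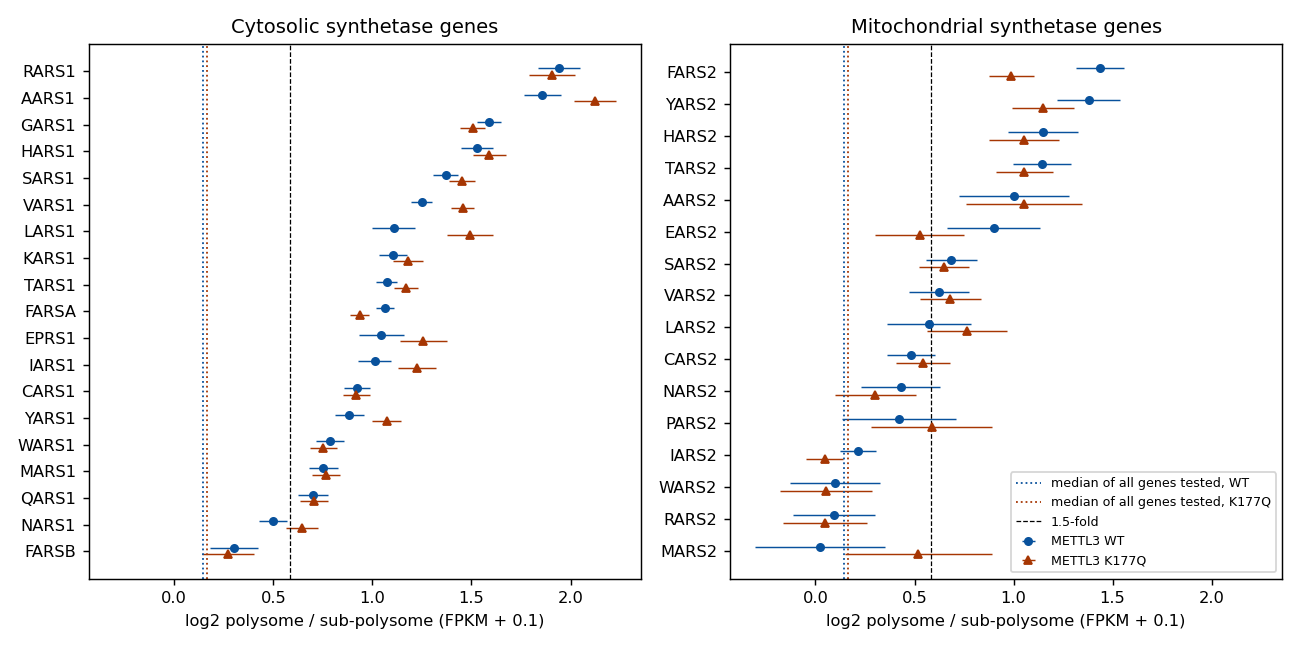
Polysome over sub-polysome level (log2, FPKM + 0.1) of each synthetase gene in METTL3-WT (circles) and METTL3-K177Q cells (triangles), 1 library per fraction, with bars of 1.96 counting SE on either side. All points lie above 0, and the cytosolic genes lie mostly right of the dashed 1.5-fold line while the mitochondrial genes spread on both sides of it.

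RARS1 and AARS1 had the highest polysome ratios of all synthetase genes. RARS1, the arginyl enzyme, had 16.5, 63.7, 14.8 and 55.6 FPKM, a log2 ratio of 1.94 (SE 0.05) in METTL3-WT and 1.91 (SE 0.06) in METTL3-K177Q cells, or 3.84-fold and 3.75-fold. AARS1 had 13.8, 50.4, 10.5 and 46.0 FPKM, with ratios of 1.86 (SE 0.05) and 2.12 (SE 0.05). In METTL3-WT cells these lay at the 99.5th and 99.2nd percentile of all genes tested. GARS1 followed at 1.59 and 1.51, and the histidyl enzyme HARS1 at 1.53 and 1.59. The lowest cytosolic ratios belonged to FARSB at 0.30 and 0.27, to the asparaginyl enzyme NARS1 at 0.50 and 0.64, and to QARS1 at 0.70 and 0.71. NARS1 had 38.4, 54.2, 30.7 and 48.1 FPKM, so a low ratio did not go with a low level there.

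Of the mitochondrial genes, FARS2 (1.44 and 0.99), the tyrosyl enzyme YARS2 (1.38 and 1.15) and HARS2 (1.15 and 1.05) had the highest polysome ratios in METTL3-WT cells. YARS2 had 8.20, 21.5, 9.35 and 20.9 FPKM. HARS2 had 5.91, 13.2, 6.26 and 13.1 FPKM, and the divergent HARS1 35.4, 102, 32.6 and 98.2 FPKM. Both genes of this head-to-head pair were therefore above 2-fold in polysomes, at levels that differed 5.98-fold and 7.72-fold in METTL3-WT sub-polysome and polysome RNA. At the low end in METTL3-WT cells, MARS2 had ratios of 0.02 (SE 0.17) and 0.52 (SE 0.19). RARS2 had 0.09 and 0.05, from 6.23, 6.65, 6.18 and 6.39 FPKM, and the tryptophanyl enzyme WARS2 0.10 and 0.05, from 4.24, 4.55, 4.20 and 4.35 FPKM. These last ratios were within 1 counting SE of 0 (SE 0.11 to 0.12), so a shift to polysomes was not detectable for them at this depth. In METTL3-K177Q cells IARS2 was the lowest at 0.047 (SE 0.05), and in METTL3-WT cells it had 0.22.

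Cytosolic and mitochondrial enzymes for the same amino acid form 15 pairs, with EPRS1 set against EARS2 and FARSA against FARS2. Members of a pair share no run of 50 bases in their transcripts. The cytosolic gene had the higher FPKM in all 15 pairs in polysome RNA and in 14 in sub-polysome RNA of both genotypes. The median ratio of levels was 5.98 and 7.25 in METTL3-WT and 5.20 and 6.01 in METTL3-K177Q sub-polysome and polysome RNA. The isoleucyl pair was the exception: IARS1 had 15.5, 31.5, 11.6 and 27.1 FPKM and IARS2 20.4, 23.7, 20.7 and 21.3 FPKM, so that the mitochondrial mRNA was higher in sub-polysome and lower in polysome RNA. In the methionyl pair MARS1 was 17.4-fold to 33.0-fold above MARS2, the widest gap.

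The polysome ratio was higher for the cytosolic gene in 12 of 15 pairs in METTL3-WT and in 13 of 15 in METTL3-K177Q cells, with a median difference of 0.53 and 0.70. It differed most in the arginyl pair, by 1.85 and 1.86, with RARS1 at the top of all 35 genes in METTL3-WT cells and RARS2 next to the bottom. In the asparaginyl pair the difference was 0.07 and 0.34, NARS2 having 5.52, 7.47, 5.55 and 6.86 FPKM. The order was turned in the tyrosyl pair, by -0.49 and -0.08, and in the phenylalanyl pair, by -0.37 and -0.05. The threonyl pair differed by -0.07 in METTL3-WT and 0.12 in METTL3-K177Q cells.

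In animal cells 7 of the cytosolic genes listed here code for subunits of the multisynthetase complex, which is held together by the scaffold proteins AIMP1, AIMP2 and EEF1E1. All 7 were higher in polysomes past 1.5-fold in both genotypes, with a median ratio of 1.05 and 1.22. Of the 12 free cytosolic genes, 10 were so in METTL3-WT and 11 in METTL3-K177Q cells, with medians of 1.07 and 1.12. The shares of all genes tested were 28.1% and 30.2%. The complex members spread widely in level. EPRS1, which joins the glutamyl and prolyl enzymes in a single protein, had 7.56, 15.7, 6.80 and 16.4 FPKM. LARS1, the leucyl enzyme, had 8.45, 18.3, 6.90 and 19.6 FPKM. KARS1, the lysyl enzyme, had the highest mean over the libraries, with 48.2, 104, 39.5 and 89.7 FPKM. MARS1 had 33.3, 56.2, 37.2 and 63.4 FPKM and the glutaminyl enzyme QARS1 36.3, 59.1, 40.8 and 66.7 FPKM, and these 2 had the lowest polysome ratios of the complex (0.75 and 0.70 in METTL3-WT cells). The scaffolds differed more than the enzymes, with ratios in METTL3-WT cells of 0.18 for AIMP1, 0.89 for EEF1E1 and 1.47 for AIMP2.

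By catalytic fold, 12 of 18 class I genes (median 0.77) and 12 of 16 class II genes (median 1.09) were higher in METTL3-WT polysomes, beside 28.1% of all genes. EPRS1 was left out because it holds both folds. The ATF4-responsive genes and the other cytosolic genes had like medians of 1.05 and 1.08. The 7 cytosolic genes with a TGATGNAA match and the 9 without also had like medians, of 1.01 and 1.06.

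Long coding sequences hold more ribosomes, and over all genes tested the median polysome ratio in METTL3-WT cells went from -0.18 in the shortest of 5 equal groups by coding length to 0.36 in the longest. The synthetase genes have coding sequences of 1080 (WARS2) to 4536 (EPRS1) bases and fall in the 3 longest groups, apart from WARS2. After the trend of all genes on coding length was removed, 16 of 19 cytosolic and 6 of 16 mitochondrial genes were higher in METTL3-WT cells, and 15 and 5 in METTL3-K177Q cells. At this setting 43.1% and 44.8% of all genes were past 1.5-fold in either direction, and the share that was higher alone was not computed. Before the trend was removed, 47.3% and 51.5% were past it in either direction, and 28.1% and 30.2% were higher. The difference between the medians was then 0.49 and 0.50. Across the 35 genes, the polysome ratio in METTL3-WT cells had a Pearson correlation of 0.17 with log2 coding length and of 0.52 with log2 mean FPKM (0.28 within the cytosolic, 0.35 within the mitochondrial and 0.06 over all genes), which is a description over genes that share the same 2 libraries. In METTL3-K177Q cells these were 0.33 with coding length and 0.48 with level (0.13 within the cytosolic, 0.12 within the mitochondrial and -0.07 over all genes).

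Other genes of the pathway were read beside them, where 28.1% of all genes tested were higher and 19.1% lower in METTL3-WT polysomes. Of 18 partners of tRNA charging, such as amidotransferase subunits, peptidyl-tRNA hydrolases and tRNA export and end-processing factors, 10 were higher and 3 lower in METTL3-WT polysomes (median 0.76, from DTD2 at -1.84 to AARSD1 at 1.63). Of 10 elongation and release factors of the cytosol, 2 were higher (median 0.24), and of 10 mitochondrial translation factors 3 were higher and 2 lower (median 0.08). Of 78 mitochondrial ribosomal protein genes, 38 were higher and 5 lower (median 0.54). Of 50 genes with EIF symbols, 20 were higher and 5 lower (median 0.42). These were taken by symbol as initiation factors, but include others such as EIF4EBP2 and the elongation factor EIF5A. Of 19 other genes of the ATF4 response, 6 were higher and 2 lower (median 0.26), ASNS at 1.92 and ATF4 itself at -1.67. Besides genes of amino acid synthesis and transport, these 19 include ATF4, DDIT3, DDIT4, TRIB3, SESN2, CHAC1 and VLDLR. The 83 cytosolic ribosomal protein genes, most of which carry a 5′ terminal pyrimidine tract, had a median of -0.53 with 0 higher and 35 lower, and of -0.056 with the coding-length trend removed. A C followed by at least 4 pyrimidines at the start site was present in 2 of 39 windows of synthetase genes (QARS1 and WARS2, 5.13%) and in 4.07% of all windows.

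The question of the second comparison was whether METTL3-K177Q changed the polysome ratio. The translation efficiency ratio, the polysome ratio in METTL3-K177Q over that in METTL3-WT cells, was past 1.5-fold in 0 of 35 synthetase genes, where 4.08% of all genes tested were higher and 7.03% lower (11.1% in either direction). The log2 ratios ran from -0.45 for FARS2 to 0.49 for MARS2. The cytosolic median was 0.07 with 13 of 19 genes above 0, and the mitochondrial median -0.05 with 6 of 16 above 0, while 48.9% of all genes were above 0. The sign of the mitochondrial median depends on how the libraries are scaled. With each library rescaled to the same total (TPM), the median of all genes tested moved from -0.01 to 0.29, and 33 of the 35 genes were above 0, with medians of 0.37 for cytosolic and 0.25 for mitochondrial genes. The cytosolic median stayed above 0 under every scaling tried and turned to -0.034 with the coding-length trend removed, where 9 of the 35 genes were above 0.

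**Figure D2:**
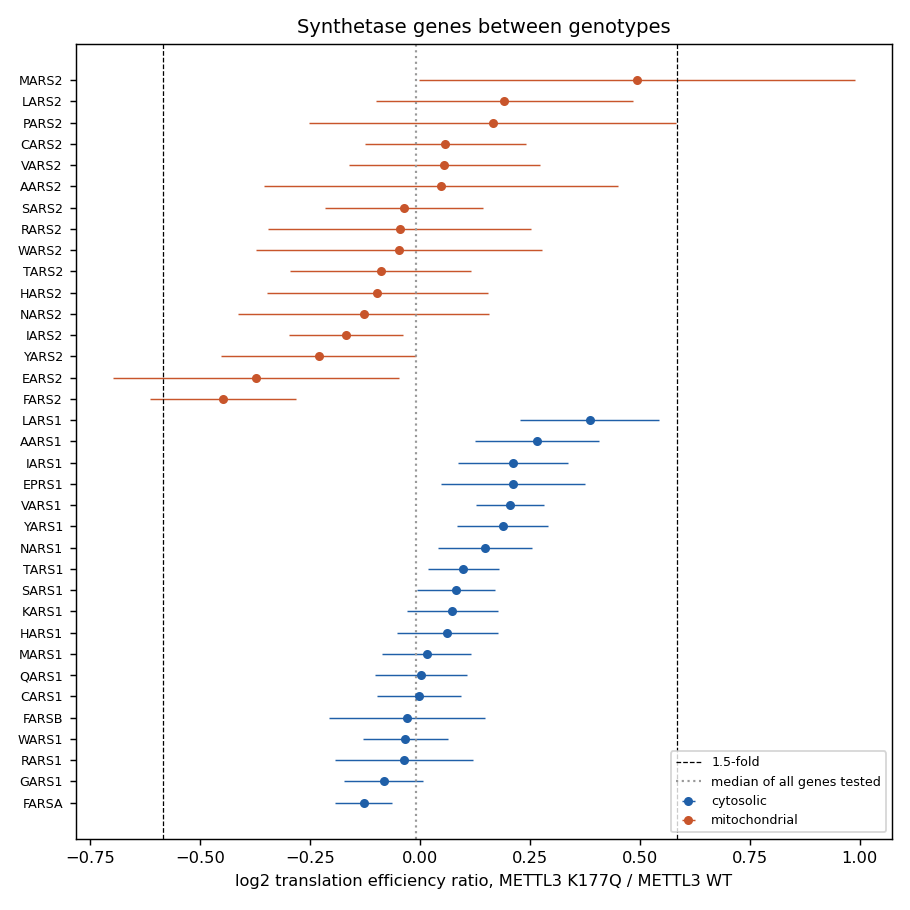
Translation efficiency ratio of METTL3-K177Q over METTL3-WT cells (log2) for each synthetase gene, 1 library per genotype and fraction, with bars of 1.96 counting SE on either side, which do not cover variation between cultures. No point passes the dashed 1.5-fold lines, and the widest bars belong to mitochondrial genes of low level such as MARS2.

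LARS1 had the highest ratio of the cytosolic genes at 0.39 (SE 0.08), or 1.31-fold. AARS1 was next at 0.27 (SE 0.07), then IARS1 and EPRS1 at 0.21 each (SE 0.06 and 0.08). LARS1, IARS1 and EPRS1 have the longest coding sequences of the complex members, and with the coding-length trend removed the ratios were 0.16 for LARS1, 0.07 for AARS1, -0.03 for IARS1 and -0.05 for EPRS1. The lowest cytosolic ratios were -0.13 (SE 0.03) for FARSA, -0.08 (SE 0.05) for GARS1 and -0.04 (SE 0.08) for RARS1. In all, cytosolic ratios stayed between -0.13 and 0.39 in FPKM. LARS1 went past 1.5-fold with other scalings, at 0.68 in TPM and 0.62 with equal totals outside the ribosomal protein genes.

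For mitochondrial genes, the high end held MARS2 at 0.49 (SE 0.25), LARS2 at 0.19 (SE 0.15) and the prolyl enzyme PARS2 at 0.17 (SE 0.21). LARS2 had 2.44, 3.67, 2.69 and 4.64 FPKM, and PARS2 2.84, 3.84, 2.46 and 3.74 FPKM. In FPKM all of these lay within 1.96 counting SE of 0, MARS2 only just, so at this setting they cannot be told from 0. With a pseudocount of 0.01 MARS2 was at 0.52, the highest of the 35 genes. MARS2 stood at 0.78 in TPM and 0.72 with equal totals, both past 1.5-fold. The low end held FARS2 at -0.45 (SE 0.08), EARS2 at -0.37 (SE 0.17) and YARS2 at -0.23 (SE 0.11). Of the 35 genes, the lowest ratio was -0.15 in TPM and -0.21 with equal totals, so these low values depend on scaling too. Of 15 pairs, the cytosolic gene had the higher translation efficiency ratio in 13, with a median difference of 0.19. A scaling of whole libraries cancels in such a difference but for the effect of the pseudocount. In the arginyl and tryptophanyl pairs the difference was only 0.0097 and 0.014. With the coding-length trend removed both turned, RARS1 being at -0.148 and RARS2 at -0.129, and WARS1 at -0.063 and WARS2 at -0.004.

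The fractions were also read apart. In polysome RNA, METTL3-K177Q against METTL3-WT was past 1.5-fold in 0 of 35 genes, where 2.13% of all genes were higher and 3.13% lower. The values ran from -0.27 for TARS1 to 0.33 for LARS2, 12 of 35 were above 0 beside 46.2% of all genes, and the medians were -0.09 for cytosolic and -0.05 for mitochondrial genes. In TPM these medians turned to 0.0071 and 0.042, with 22 of 35 genes above 0. In sub-polysome RNA, 0 of 35 were past 1.5-fold, where 4.01% of all genes were higher and 2.94% lower. The values ran from -0.51 for MARS2 to 0.30 for FARS2, with medians of -0.13 for cytosolic genes, of which 16 of 19 were below 0, and 0.01 for mitochondrial genes. In all, 12 of 35 genes were above 0 there, beside 49.4% of all genes. With TPM, 2 cytosolic genes and 1 mitochondrial gene were lower past 1.5-fold in sub-polysome RNA, where 11.7% of all genes were past it in either direction.

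The 5 lowest cytosolic values in sub-polysome RNA were those of IARS1 (-0.42), AARS1 (-0.40), TARS1 (-0.37), NARS1 (-0.32) and LARS1 (-0.29). Of these, IARS1, AARS1, TARS1 and NARS1 are among the genes with a TGATGNAA match shown above. The 7 cytosolic genes with a match had a median of -0.32, with 6 of 7 below 0, and the 9 without a match had -0.12, with 7 of 9 below 0. MARS1, the exception among the 7, was at 0.16. Of all genes tested, 50.6% were below 0. With the coding-length trend removed, CARS1 (0.02), GARS1 (0.05) and MARS1 (0.28) of the genes with a match were above 0. So were EPRS1 (0.008), QARS1 (0.27) and WARS1 (0.17) of the genes without. LARS1 had no window and is in neither group, and this split was looked at after the values were seen. It did not follow the ATF4-responsive list, whose 13 genes had a median of -0.13 beside -0.14 for the other 6 cytosolic genes. The 19 other genes of the ATF4 response had 0.17, with 13 above 0. The highest of them were VLDLR (0.54), DDIT4 (0.53) and CHAC1 (0.50), which are not genes of amino acid synthesis or transport. Those that are ran from -0.69 for SLC7A11 to 0.33 for PHGDH.

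**Figure D3:**
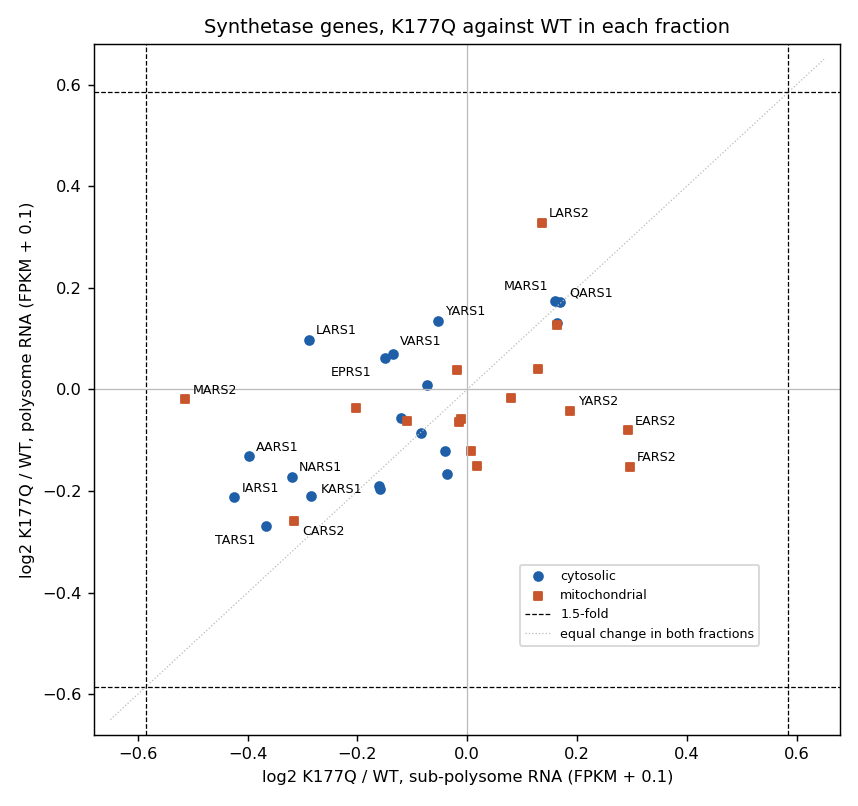
Level in METTL3-K177Q over METTL3-WT cells (log2, FPKM + 0.1) in sub-polysome RNA (horizontal) against polysome RNA (vertical) for 19 cytosolic (circles) and 16 mitochondrial (squares) synthetase genes, 1 library per value. All points lie inside the dashed 1.5-fold lines, and 16 of 19 cytosolic genes lie left of 0 on the horizontal axis.

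The other gene lists were read in the same way, with no test of their difference from the synthetases. Mitochondrial ribosomal protein genes had a median translation efficiency ratio of -0.25 with 0 of 78 higher and 3 lower, and cytosolic ribosomal protein genes of -0.64 with 1 of 83 higher and 54 lower. The genes with EIF symbols had a median of -0.06, with 1 of 50 past 1.5-fold, and mitochondrial translation factors -0.01, with 0 of 10. Partners of tRNA charging were at -0.11, with 0 of 18. Cytosolic elongation and release factors were at -0.15, with 1 of 10 lower, and the other genes of the ATF4 response at -0.16, with 1 of 19 lower. The synthetase medians were 0.07 for cytosolic and -0.05 for mitochondrial genes. Of all genes tested, 4.08% were higher and 7.03% lower. With the coding-length trend removed, the medians were -0.06 for mitochondrial ribosomal protein genes, -0.41 for cytosolic ones and -0.05 for the partners, beside -0.09 for the 35 synthetase genes. The values of the 3 scaffolds lay between -0.27 (AIMP2) and -0.15 (EEF1E1).

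Some values may hold reads of neighbouring genes. In GENCODE 44, exons of 6 synthetase genes overlap exons of another gene of the table on the same strand, 3 of them with a gene that passed the minimum (HARS1 with DND1, HARS2 with ZMAT2 and EARS2 with GGA2). On the opposite strand 15 do, 9 of them with such a gene, among them MARS1 with DDIT3 and KARS1 with TERF2IP. Whether strand was used in counting is not given in the sources used here. EARS2, at a mean of 2.50 FPKM beside 4.43 FPKM for GGA2, and HARS2, at 9.62 FPKM beside 41.7 FPKM for ZMAT2, are the values to be read with most care.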

How the data were processed

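The deposited table gives FPKM per gene, which the authors made from poly(A)-selected, directional libraries. The submitters' processing notes name STAR 2.7, StringTie 2.1.5 and hg38, and the annotation is not given in the sources used here. A further 4 columns, named as replicate 1 of these conditions, fit no listed sample and were not analysed here. Libraries were grouped by their titles, 1 per condition, so no test was made. Ratios were taken on log2(FPKM + 0.1) for genes whose mean reached 1 FPKM and counted at 1.5-fold. Medians have 95% binomial intervals (distribution-free), which cover the spread between genes. Depth is approximate: the lowest cluster of FPKM times transcript length (0.028 to 0.056 FPKM times kilobases, limits chosen after seeing the values) stood for 1 fragment. Coding lengths come from canonical transcripts of GENCODE 44 on GRCh38, and sequences and start sites from RefSeq (GRCh38.p14). The 35 genes and the other lists were chosen with earlier results of these data known. Values in all libraries are given for complex members, GARS1, KARS1, the 3 most and least abundant genes of each compartment, the 3 highest and lowest ratios, and the most and least different pairs. The calculation was tested on simulated data. Alternatives were other pseudocounts, filters, scalings and thresholds, removal of a coding-length trend (lowess, span 0.3) and omission of GARS1 and KARS1. Python 3.11.15 was run with matplotlib 3.10.9, statsmodels 0.14.6, scipy 1.17.1, numpy 2.4.6 and pandas 2.3.3.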

Additional observations from a re-analysis of the deposited data

Results flagged for a closer look

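For 3 genes the difference between METTL3-K177Q and METTL3-WT cells went opposite ways in the 2 fractions, each beyond 1.96 counting SE. LARS1 was at 0.10 in polysome and -0.29 in sub-polysome RNA, a difference of 0.39. VARS1, the valyl enzyme, was at 0.07 and -0.13, a difference of 0.21. FARS2 was at -0.15 and 0.30, a difference of -0.45. With the coding-length trend removed, polysome and sub-polysome values were 0.01 and -0.14 for LARS1, -0.02 and 0.01 for VARS1 and -0.18 and 0.30 for FARS2, so that the directions of VARS1 turned. The genes were flagged in FPKM only, and signs within a fraction depend on how the libraries are scaled. In TPM the median of all genes tested was 0.07 in polysome and -0.21 in sub-polysome RNA, beside -0.02 and -0.004 in FPKM. With 1 library per condition, these differences between fractions were not tested.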

How the results depend on the processing

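With 1 library per condition no replicate can be left out and no difference between genotypes has a replicate error. No paired analysis was possible because each condition has 1 library analysed here and all are of replicate 2. Of the values recomputed for the lists, 390 stayed within the spread between genes (or, for counts, within 1.5 times) and 30 moved, and of those for single genes 244 did and 65 moved. At 2-fold, 5 mitochondrial genes were higher in polysomes in METTL3-WT and 4 in METTL3-K177Q cells, and with the coding-length trend removed 5 in METTL3-K177Q cells. In TPM the cytosolic polysome ratio in METTL3-K177Q cells was 1.61. The cytosolic median of the translation efficiency ratio was 0.37 in TPM, 0.31 with equal totals outside ribosomal protein genes and -0.034 with the length trend removed. The mitochondrial median was 0.25 in TPM and 0.19 with equal totals. In both scalings 1 cytosolic (LARS1) and 1 mitochondrial gene (MARS2) were higher past 1.5-fold and 33 of 35 were above 0, against 9 with the length trend removed. Of all genes, 21.4% and 17.1% were past 1.5-fold in either direction in these scalings, and their median was 0.29 in TPM and 0.23 with equal totals. In polysome RNA the mitochondrial median was 0.042 in TPM, with 22 of 35 genes above 0, and 7 were above 0 with the length trend removed. In sub-polysome RNA the cytosolic median was -0.34 in TPM and -0.33 with equal totals, and the mitochondrial median -0.19 in both. In both, 2 cytosolic genes and 1 mitochondrial gene were lower past 1.5-fold and 2 of 35 were above 0, against 19 with the length trend removed. TPM and equal totals move all genes of a library together by construction. A minimum mean of 5 FPKM left 29 of the 35 genes among 7208.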
